A study of Mus musculus with 2 samples.

Results

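Mir451a, Mir144 and Mir486 are the microRNA genes most closely tied to red blood cells, and their reads in a brain sample serve as a gauge of the blood left in it. The 3 genes were chosen by their GENCODE M21 symbols, out of 2202 microRNA genes in the deposited tables. All 3 had at least 10 reads in each library, the level at which a gene is called detected here, as did 417 of the 2202. The samples are 2 microRNA-seq libraries (RNA under 30 bases) from the left cerebral cortex of adult male 5xFAD/CAST mice aged 8 to 10 months. They form 1 group, with no control mice analysed here. 5xFAD is a transgenic model of amyloid deposition and CAST a wild-derived inbred strain; whether these animals had inherited the transgenes is not stated in the labels, which name no treatment either. The 2 libraries are given as biological replicates from separate tissue samples under 1 donor identifier, so whether the spread between them is that between animals is not known, and p-values measure only the difference between these libraries.

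As background, mature red blood cells have lost their nucleus but keep small RNAs, and miR-451a is the dominant microRNA among these. Mir144 and Mir451a are made from 1 primary transcript that the erythroid transcription factor GATA1 switches on, and both help red cell precursors to mature and to withstand oxidative stress. Mir486 lies in Ank1, the gene for erythrocyte ankyrin, and is made in red cell precursors and also in skeletal and heart muscle. Cortical neurons and glia are not known as a major source of Mir451a or Mir144, which is why their level in brain tissue is read as a gauge of blood.

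Sequences were found in RefSeq (build GRCm38.p6, the mm10 assembly) for 2 of the 3 genes, Mir451a and Mir144. They are shown as background on how these precursors are laid out and cut, which the counts per gene do not use. In the mature microRNAs, given 5′ to 3′, capitals mark the seed (bases 2 to 8), which pairs with target messenger RNAs.
miR-451a: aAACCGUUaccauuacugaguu
miR-144-5p: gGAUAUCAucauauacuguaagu
miR-144-3p: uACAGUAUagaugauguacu
The 3 seeds differ from each other, and 0 of the other mature microRNAs in the RefSeq table, which holds 1738, share any of them. In the precursors, capitals mark the mature stretches.
Mir451a precursor: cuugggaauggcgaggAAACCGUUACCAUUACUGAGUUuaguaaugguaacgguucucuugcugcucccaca
Mir144 precursor: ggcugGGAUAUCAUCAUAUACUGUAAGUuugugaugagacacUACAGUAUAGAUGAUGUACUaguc
Mature miR-451a covers bases 17 to 38 of its 72-base precursor. Folded with RNAfold, that precursor has a terminal loop of 4 bases at positions 35 to 38, so the mature stretch runs through the whole loop. This layout belongs to the known exception by which miR-451a is cut by the Argonaute protein AGO2 rather than by Dicer, which cuts off the loop of other precursors. In the Mir144 precursor of 66 bases the arms lie at bases 6 to 28 and 43 to 62, on either side of a loop at 31 to 36. Counts are given per gene, so reads of miR-144-5p and miR-144-3p are not told apart.

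Mir144 (ENSMUSG00000065401.1) lies on the plus strand of chromosome 11 at 78073005 to 78073070 (mm10). Mir451a (ENSMUSG00000070065.1) follows at 78073170 to 78073241 on the same strand, with 99 bases between them. Neither lies in another gene on its strand, and the next annotated gene is Eral1, on the minus strand, 134 bases beyond Mir451a. A further microRNA gene, Mir451b, occupies exactly the coordinates of Mir451a on the minus strand. Mir486 (ENSMUSG00000070084.3) lies on chromosome 8 at 23142555 to 23142682, plus strand. It sits within Ank1 on the same strand, in intron sequence, since no annotated Ank1 exon overlaps it. Mir3107, listed in RefSeq under the synonym mmu-mir-486b, lies within Mir486 on the minus strand and shares 90 bases with it.

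The libraries held 16403925 and 16991914 reads, of which 4929428 and 4441328 (30.1% and 26.1%) were counted in the sense direction at microRNA genes. Levels are these counts scaled to 1000000 assigned reads (CPM), and 1 read stands for 0.203 CPM in the first library and 0.225 CPM in the second. Among the neuronal microRNAs of the labelled tissue, Mir137 stood at 12338 and 6351 CPM and Mir128-1 at 13556 and 7493 CPM in replicates 1 and 2. The list did not move as 1: Mir132, its most abundant member, was higher in replicate 2, at 19682 and 44698 CPM. Some others on that list had few reads, such as Mir124a-1 with 21 and 12 and Mir9-2 with 12 and 16. Reads that map to several places are not in these counts. Intervals are exact 95% intervals for counting error only. Reads were not collapsed by molecular identifiers here, so repeated copies of 1 molecule would count as separate reads.

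Mir451a had 2610 reads in replicate 1 and 232 in replicate 2. These are 529 CPM (interval 509 to 550.2) and 52.2 CPM (45.7 to 59.4), or 1 in 1889 and 1 in 19144 microRNA reads. Replicate 1 was therefore the library with far more Mir451a, and the intervals do not overlap. The level was 10.1-fold lower in replicate 2, a log2 ratio of replicate 2 to replicate 1 of -3.34 (-3.54 to -3.15). In an exact two-sided binomial test of the reads given both library totals, its p-value was under the smallest number that double precision holds. In mean CPM it ranked 152nd of the 2202 genes, at rank 128 in replicate 1 and rank 230 in replicate 2.

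Mir144 had 285 reads in replicate 1 and 28 in replicate 2, which are 57.8 CPM (51.3 to 64.9) and 6.30 CPM (4.19 to 9.11). It was again replicate 1 that was high, with no overlap of the intervals. The level was 9.17-fold lower in replicate 2, a log2 ratio of -3.20 (-3.81 to -2.63). The binomial test gave an adjusted p of 1.91e-48 after Benjamini-Hochberg adjustment for all 417 detected genes.

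Mir486 had 74 reads in replicate 1 and 133 in replicate 2, which are 15.0 CPM (11.8 to 18.8) and 29.9 CPM (25.1 to 35.5). Here replicate 2 was the higher library, opposite to the other 2 genes. The level was 1.99-fold higher in replicate 2, a log2 ratio of 1.00 (0.58 to 1.43), with an adjusted p of 3.00e-06 by the binomial test. As means ± SD of the libraries (n = 2), Mir451a stood at 291 ± 337 CPM, Mir144 at 32.1 ± 36.4 CPM and Mir486 at 22.5 ± 10.6 CPM. Mir451a was the highest of the 3 in both libraries, and its lower value was above both values of Mir486. The ranges of Mir451a and Mir144 overlapped, as did those of Mir144 and Mir486, which changed order between the libraries.

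**Figure D1:**
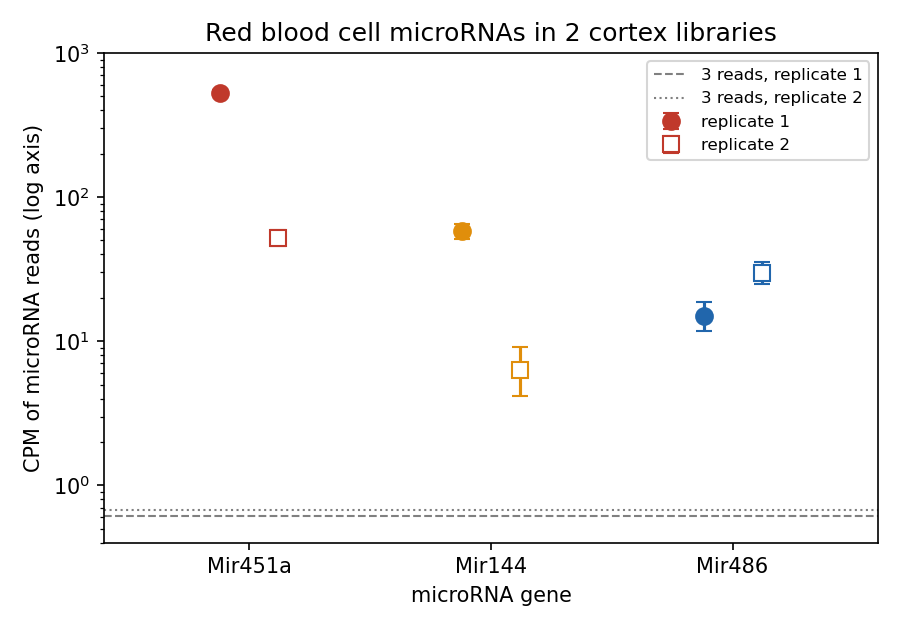
CPM (log axis) of Mir451a, Mir144 and Mir486 in replicate 1 (filled circles) and replicate 2 (open squares), with exact 95% intervals for counting error, and grey lines at the level of 3 reads. Mir451a and Mir144 are about an order of magnitude lower in replicate 2, at 52.2 and 6.30 CPM, while Mir486 is higher there, at 29.9 CPM.

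The binomial test called most genes, so the call itself says little about the members. It called 59.2% of the 417 detected genes: 34.5% as lower and 24.7% as higher in replicate 2. When counts were scaled to all reads of the table in place of microRNA reads, the share of lower genes among those called went from 58.3% to 73.0%, with a shift of the median log2 ratio of -0.20. The size of the gap sets Mir451a and Mir144 apart from most genes. A fall of at least 2-fold was called at 20 genes, 4.8% of those tested, and among these 20 Mir451a and Mir144 had the second and the third widest gaps, after Mir301. The median gene was 0.373 from a ratio of 1 on the log2 scale. For Mir486, 28 other genes had a wider rise in replicate 2, and 6.47% of genes were called at least 2-fold higher; Mir486, at 1.99-fold, lay just short of this.

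The gaps were also set against the spread over all genes. The biological coefficient of variation between the libraries, fitted over all detected genes with edgeR, was 0.340. That value was fitted on the same 2 libraries, and no library has a replicate of its own, so a test built on it orders genes by their gap and does not show a difference beyond the spread between samples. The negative binomial exact test of edgeR with that spread called 6 genes, 1.44% of the 417, and 23 genes (5.52%) had an unadjusted p under 0.05. Mir451a (adjusted p = 0.0023) and Mir144 (adjusted p = 0.00863) were among the 6, the other four being Mir301, Mir31, Mir26a-1 and Mir153. Mir486 was not called (adjusted p = 1 by edgeR).

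**Figure D2:**
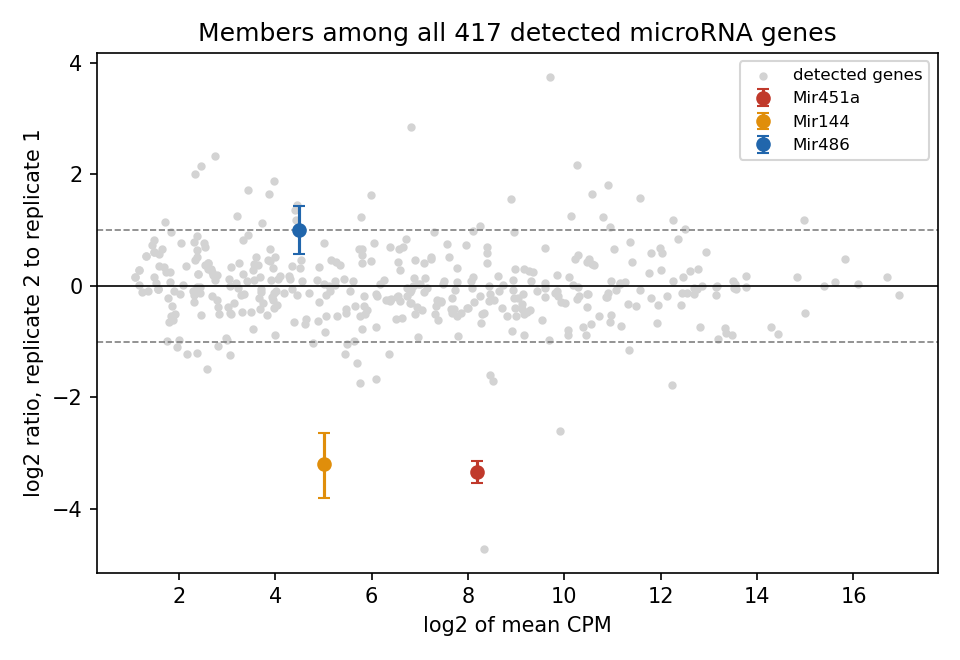
Log2 ratio of replicate 2 to replicate 1 against the log2 of mean CPM for the 417 detected genes (grey), with Mir451a, Mir144 and Mir486 in colour and their exact 95% intervals. Dashed lines mark 2-fold. Mir451a (-3.34) and Mir144 (-3.20) lie far under the bulk of genes of their level. Mir486 (1.00) lies among the genes higher in replicate 2, of which 28 others had a wider rise.

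Ratios between the members within a library need no scaling, and they separate the cluster on chromosome 11 from Mir486. Mir451a gave 9.16 reads for each read of Mir144 in replicate 1 (8.10 to 10.4) and 8.29 in replicate 2 (5.58 to 12.7). Each value lay within the interval of the other, while the levels moved about an order of magnitude. The odds ratio of replicate 1 to replicate 2 was 1.11 (0.705 to 1.68). Fisher's exact test, two-sided and adjusted over the 3 pairs, gave p = 0.59 for this pair. At this depth a change of the ratio smaller than the interval could not be seen.

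The ratios to Mir486 differed between the libraries by far more than counting error. Mir451a stood at 35.3 reads for each read of Mir486 in replicate 1 (28.0 to 45.1) and at 1.74 in replicate 2 (1.40 to 2.18). The odds ratio was 20.2 (14.6 to 28.1), with an adjusted p of 6.73e-79 in Fisher's exact test. Mir144 stood at 3.85 reads for each read of Mir486 in replicate 1 and at 0.211 in replicate 2, an odds ratio of 18.2 (11.1 to 30.7; adjusted p = 2.38e-41, Fisher's exact test). Read as gauges of blood, Mir451a and Mir144 put more of it in replicate 1, and the counted reads of Mir486 do not. Mir451a and Mir144 come from 1 primary transcript, so they are not 2 separate gauges. Reads that map to several places, as any matching both Mir486 and Mir3107 may, are not in the count of Mir486. Its direction and the ratios to it therefore hold for the counted reads only, which may be a part of its product. Fewer red cells and less of the microRNA in each cell cannot be told apart in bulk tissue.

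**Figure D3:**
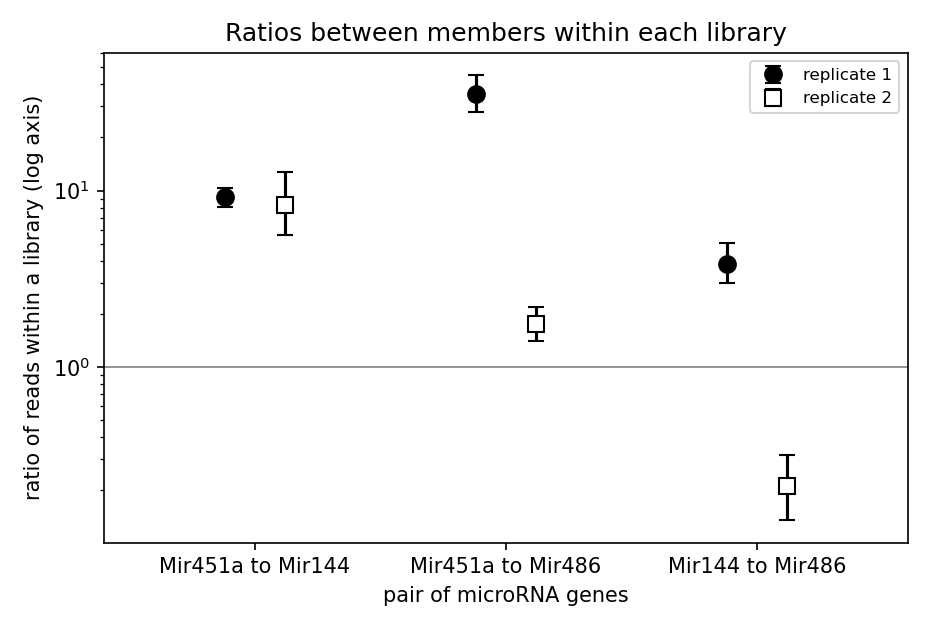
Ratio of reads (log axis) between pairs of members within replicate 1 (filled circles) and replicate 2 (open squares), with exact 95% intervals. Mir451a to Mir144 is alike in both libraries (9.16 and 8.29), while both ratios to Mir486 fall in replicate 2, to 1.74 and 0.211.

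Together the 3 genes took 0.0602% of the microRNA reads in replicate 1 (2969 reads, interval 0.0581% to 0.0624%) and 0.00885% in replicate 2 (393 reads, 0.00800% to 0.00977%), a 6.81-fold gap. Mir451a made up 87.9% of these reads in replicate 1 and 59.0% in replicate 2, and Mir486 2.49% and 33.8%. Without Mir486 the shares were 0.0587% and 0.00585%, a gap of 10.0-fold, so what the gauge reads depends on whether Mir486 is in it. Scaled to 1000000 reads of any kind in the tables, Mir451a stood at 159 and 13.7.

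The strand of the reads bears on each gene. On the strand opposite to Mir451a there were 0 reads beside 2610 and beside 232 sense reads, which allows a share of up to 0.115% and 1.29%. Mir451b thus had 0 reads in both libraries, a count that allows up to 0.609 and 0.675 CPM, the level of 3 reads. Mir144 also had 0 opposite reads. At Mir486 there were 10 opposite reads in replicate 1 and 6 in replicate 2, which were the sense reads of Mir3107. In the column that ignores strand, Mir451a and Mir486 have 0 reads in both libraries and Mir144 keeps its 285 and 28, because reads at genes that overlap on the other strand are set aside there as ambiguous. The count of Mir486 has a limit of its own in reads that could match Mir486 and Mir3107. Reads that map to several places, 38.5% and 33.0% of all reads, are not in the gene counts, and how many of them came from these genes was not measured.

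Among detected genes, those next to each member in mean CPM were Mir702 and Mir501 above and Mirlet7a-2 and Mir669c below Mir451a. Around Mir144 they were Mir6236 and Mir6944 above and Mir3086 and Mir582 below, and around Mir486 they were Mir6769b and Mir10b above and Mir669l and Mir18 below. For all 12 the range over the 2 libraries overlapped that of the member, an overlap that the choice by nearest mean and the wide ranges of Mir451a and Mir144 largely fix. Mir702, for instance, stood at 323 and 286 CPM, inside the range of Mir451a. Likeness to Mir451a was measured as the distance between log2 ratios, over 2 libraries, among the 270 genes with at least 100 reads in each. The 5 nearest were Mir153 (log2 ratio -2.60), Mir301 (-4.72), Mir99b (-1.79), Mir148a (-1.75) and Mir1298 (-1.71). Even the nearest lay 0.74 from Mir451a, whereas Mir144, with too few reads for this list, lay within its interval.

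Other microRNAs known to be abundant in red blood cells, which many other cells also make, did not show gaps of this size where they were detected. Of the 13 on the list, 12 were detected, with 7 called lower, 2 higher and 3 not called in replicate 2, where 34.5% of all detected genes were lower and 24.7% higher. The list had a median log2 ratio of -0.25, beside -0.05 over all detected genes. The widest fall was at Mir16-1, a regulator of the cell cycle, at 741 and 400.1 CPM (-0.89). Mir185 stood at 1984 and 1724 CPM (-0.20), Mir93 at 1332 and 1124 CPM (-0.25) and Mir92-1, of the miR-17~92 cluster, at 375 and 268 CPM (-0.48). Mir15b was higher in replicate 2, at 107 and 208 CPM (0.96). Mir16-1 and Mir92-1 each have another locus with the same mature microRNA, and reads matching both loci are not in their counts. Scaled to all reads, the list had 9 lower and 1 higher, while over all detected genes 197 were lower and 73 higher.

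Mir363 was the member of that list that missed the minimum, with 20 reads in replicate 1 and 1 in replicate 2. These are 4.06 and 0.225 CPM, a ratio of 18.0 with a counting interval of 2.88 to 747. With no minimum on reads it had an adjusted p of 0.000124 over 766 genes in the binomial test. Under that setting 275 of the 766 genes were called, 161 of them as lower in replicate 2, so the call itself says little. The other genes with reads in the X-linked cluster of Mir363 did not differ so widely. Mir92-2 had 90 and 64 reads, Mir20b 48 and 31, and Mir106a 14 and 16. Mir18b and Mir19b-2 had 0 reads in both libraries and could not be compared. These cluster genes were looked at after the values of Mir363 were seen, apart from Mir92-2, which is on the list.

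Markers of leukocytes, platelets, microglia and the vessel wall gave no gap like that of Mir451a. Of the 7 microRNAs of leukocytes, platelets and microglia, 6 were detected, with 2 called lower, 2 higher and 2 not called, beside 59.2% of all detected genes called in either direction, so the count is not a result about these markers. They summed to 1936 and 2088 CPM in replicates 1 and 2. The myeloid and platelet microRNA Mir223 had 46 and 48 reads, 9.33 and 10.8 CPM (log2 ratio 0.21, interval -0.40 to 0.83; adjusted p = 0.643 by the binomial test). Mir142, made throughout the blood lineages, stood at 132 and 145 CPM (0.14, interval -0.02 to 0.30), and the lymphocyte microRNA Mir150 at 1073 and 874 CPM (-0.30). The widest rise was at Mir146b, with 10 and 36 reads (2.00). Mir142b had no read in either library.

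The endothelial Mir126a stood at 13131 and 14813 CPM, and Mir143 of smooth muscle and pericytes at 7028 and 6711 CPM. The vessel list summed to 20418 and 21812 CPM, with 1 member called lower and 2 higher of 3 detected. Over all detected genes 34.5% were lower and 24.7% higher. Scaled to all reads, the list had 2 lower and 0 higher, while over all detected genes 197 were lower and 73 higher. Mir126b and Mir145b had no read. For each 1000 reads of Mir126a, Mir451a had 40.3 reads in replicate 1 and 3.53 in replicate 2. Mir126a itself was 1.13-fold higher in replicate 2, so this ratio largely repeats the gap of Mir451a. The part of white cells or vessels in the gap was not tested.

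Striated muscle also makes Mir486. Of its 10 markers, 2 were detected, beside 417 of the 2202 genes in all, so this count is not a result about muscle. Mir206 stood at 35.5 and 45.9 CPM (log2 ratio 0.37, called higher by the binomial test). Mir499 stood at 13.2 and 9.46 CPM (-0.48, not called), where 59.2% of all detected genes were called in either direction. The list summed to 54.8 and 59.9 CPM. Mir133b and 3 others had no read in either library, although Mir1a and Mir133a each have several loci with the same mature sequence, so that their reads may be among those mapped to several places. The liver microRNA Mir122, which is also found in plasma, stood at 69.0 and 50.9 CPM (-0.44, called lower). Their part in the level of Mir486 was not tested.

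Of the 13 neuronal microRNAs, 11 were detected, 7 called lower and 2 higher in replicate 2, with a median of -0.37. The background over all detected genes was 34.5% lower and 24.7% higher, with a median of -0.05. Mir137 (-0.96) and Mir128-1 (-0.86) were lower and Mir132, which follows neuronal activity, was higher (1.18). The ratio was nearer to 1 than that of Mir451a at each of the 11. Against Mir137, Mir451a had 42.9 reads per 1000 in replicate 1 and 8.23 in replicate 2. Mir137 had the lowest ratio of the 11, so this reference narrows the gap of Mir451a. A reference that rose, such as Mir132, would widen it.

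**Figure D4:**
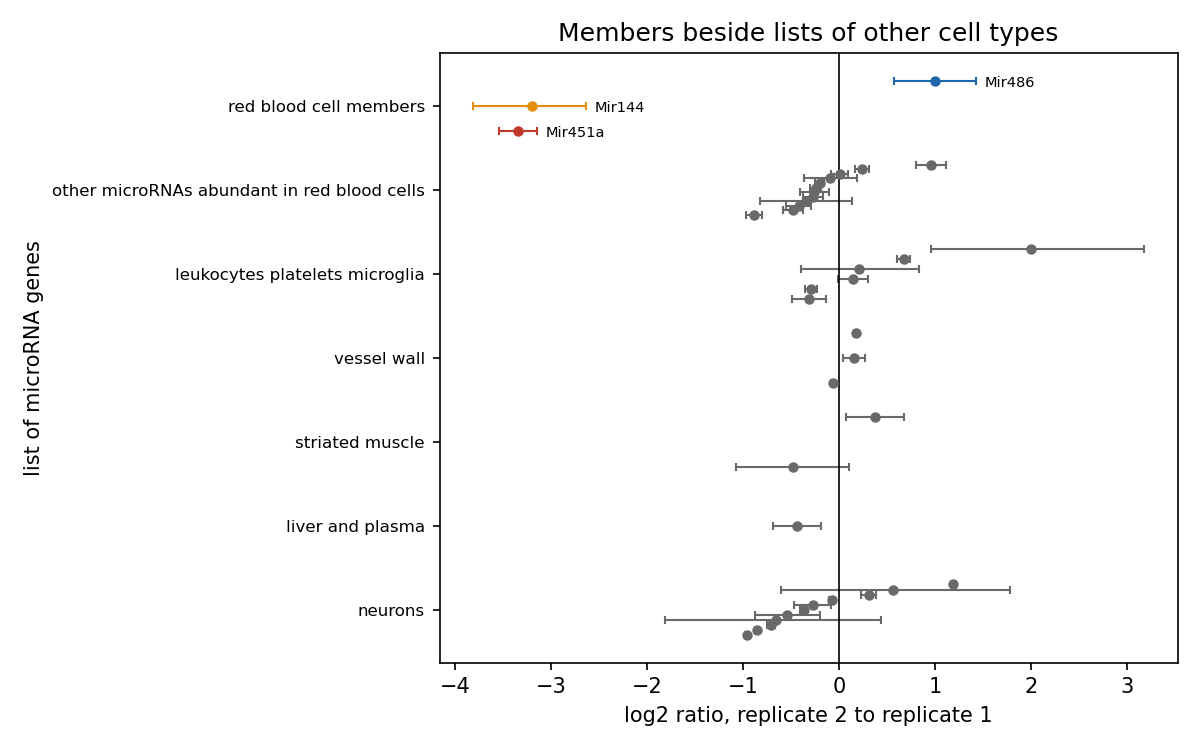
Log2 ratio of replicate 2 to replicate 1 (horizontal axis) with exact 95% intervals for the detected genes of each list (rows), the red blood cell members in colour. Mir451a and Mir144 lie under -3, and every other listed gene shown lies between -0.96 and 2.00.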

How the data were processed

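The deposited tables, 1 for each library, hold raw read counts per microRNA gene, made on mm10 with GENCODE M21 per the file headers (the notes deposited beside them). The aligner is not given in the sources used here, nor is the counter. The 3 count columns hold reads without regard to strand, sense and opposite; the sense column was used. Unassigned reads (unmapped 25.6% and 34.3%, mapped to several places 38.5% and 33.0%, outside microRNA genes 5.82% and 6.54% in replicates 1 and 2) stayed out of totals. All gene identifiers were found in GENCODE M21.

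CPM, exact intervals, binomial tests (threshold 0.05, minimum 10 reads in each library) and Fisher tests were computed with scipy 1.17.1. edgeR 4.0.16 and DESeq2 1.42.0 in R 4.3.3 gave scaling factors, and edgeR the negative binomial test; with 1 group there is no contrast for a quasi-likelihood test. Precursors were folded with RNAfold 2.7.2. List symbols absent from the annotation (Mir92a-1 and Mir92a-2) were matched by RefSeq synonym. On simulated counts, with counting error alone and 416 genes tested, 100% of 55 genes changed 4-fold, 91.0% of 67 changed 2-fold, 77.6% of 67 changed 1.5-fold and 0.881% of 227 unchanged ones were called by the binomial test. With a spread between libraries added (412 genes tested), it called 63.4% of 227 unchanged genes, so its calls cover counting error only. The negative binomial test called 0% of the genes changed 4-fold in either set, 55 genes without spread and 54 with it. The coefficient of variation fitted there was 0.408 and 0.486, above the 0.34 of the data. These sets therefore do not gauge that test at the setting used for the members.

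The members and lists were chosen with earlier results of these data known. Named genes are the members, the listed genes, 2 neighbours in mean CPM on either side of each member and the 5 genes nearest to Mir451a in log2 ratio; genes named otherwise were chosen after their values were seen.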

Additional observations from a re-analysis of the deposited data

Results flagged for a closer look

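Reads on the strand opposite to Mir486 are not in the count of Mir486 that the comparisons use; they are counted as sense reads of Mir3107. They came to 10 in replicate 1 and 6 in replicate 2, both above 3 reads, the limit that a count of 0 allows. As shares of the reads on both strands these are 11.9% (exact 95% interval 5.86% to 20.8%) and 4.32% (1.60% to 9.16%). Mir451a and Mir144 had 0 opposite reads.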

How the results depend on the processing

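The log2 ratios kept their direction under every alternative that gave a value: Mir451a lay between -3.54 and -3.29, Mir144 between -3.40 and -3.15 and Mir486 between 0.80 and 1.04. With the negative binomial test of edgeR the call for Mir486 was lost (log2 ratio 1.00, adjusted p = 1), and the called genes went from 247 to 6, with 4 lower and 2 higher; this test adds the spread fitted between the same 2 libraries to counting error. Scaled to all reads of the table, the mean level went from 291 to 86.4 for Mir451a, from 32.1 to 9.51 for Mir144 and from 22.5 to 6.17 for Mir486. In the column without strand, where overlapping genes are set aside, the means of Mir451a and Mir486 became 0 and the joint share went from 0.0345% to 0.00345%, so the ratios that involve either gene have no value there. With at least 100 reads in each library only Mir451a remains among the members. Leaving out each replicate gave 52.2 to 529 CPM for Mir451a, 6.30 to 57.8 for Mir144, 15.0 to 29.9 for Mir486 and 0.00885% to 0.0602% for their joint share. Each level therefore rests on which library is read. No paired analysis was possible because there is 1 group. Depth limits Mir144 most, with 28 reads in replicate 2.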
